A study of Rattus norvegicus with 10 samples.

Results

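Transcripts of 37 genes of amino acid catabolism and the urea cycle were measured in the livers of 10 rats, 5 fed 2-hydroxy-4-methoxybenzophenone (HMB, also called oxybenzone, an ultraviolet filter) and 5 controls. The genes were chosen by name, as probe sets of an Affymetrix rat array whose gene symbol equalled that of a listed gene, and all 37 were found among the 14217 genes measured. Where a gene had several probe sets, that of highest mean signal over the 10 arrays stands for it. The HMB rats received 10000 ppm HMB in the feed for 13 weeks and the control rats 0 ppm, and the strain was Harlan Sprague Dawley in both groups. HMB rat 1 carried the chemical and title of the HMB group but a dose label of 0 ppm, and it was counted as HMB. All were kept on NTP-2000 diet. The sex, age and cage of the rats and the dates of the arrays were not used here. With 5 rats to a cage, a cage may have held a whole group, and then an effect of cage cannot be told apart from that of HMB. Values are log2 signals, each array held RNA of 1 liver, and the number of arrays limited the precision.

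The liver is the main site where amino acids in excess of need are broken down. Aminotransferases and dehydratases remove the amino group, the urea cycle turns the resulting ammonia into urea, and the carbon skeletons enter glucose synthesis or oxidation. Many of these enzymes are made almost only by hepatocytes, and several, such as Tat and Sds, are textbook examples of genes induced by glucocorticoids, glucagon and fasting.

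None of the 37 transcripts passed the test between HMB and control rats (limma, Benjamini-Hochberg adjusted p under 0.05 over all genes), with 0 higher, 0 lower and 37 not past it. Over all 14217 genes the same test called 244, or 1.72%. At an unadjusted p under 0.05 there were 3 of 37 members, Uroc1, Csad and Gpt, against 24.9% of all genes by the same limma fit. The adjusted p of the members ran from 0.0783 to 0.995. Differences, HMB minus control on the log2 scale, lay between -0.24 and 0.35, with 23 above 0 and 14 below. Their median was 0.050, beside -0.018 over all genes and -0.072 over the brightest 25% of genes, in which 35 of the 37 members lay. Above 0 were 6615 of all 14217 genes and 1023 of the 3554 in the brightest 25%, beside 23 of those 35 members. In whole liver, fewer cells of a type and less RNA per cell cannot be told apart.

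The sizes of change that the intervals leave were small for most members. For 34 of the 37 the 95% interval of the difference stayed inside 1.5-fold in either direction, as it did for 86.1% of all genes. The exceptions were Sds, Got1 and Gpt. The typical spread between rats of a group was a log2 SD of 0.12 for the members, against 0.16 for all genes and 0.12 for the brightest 25%.

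**Figure D1:**
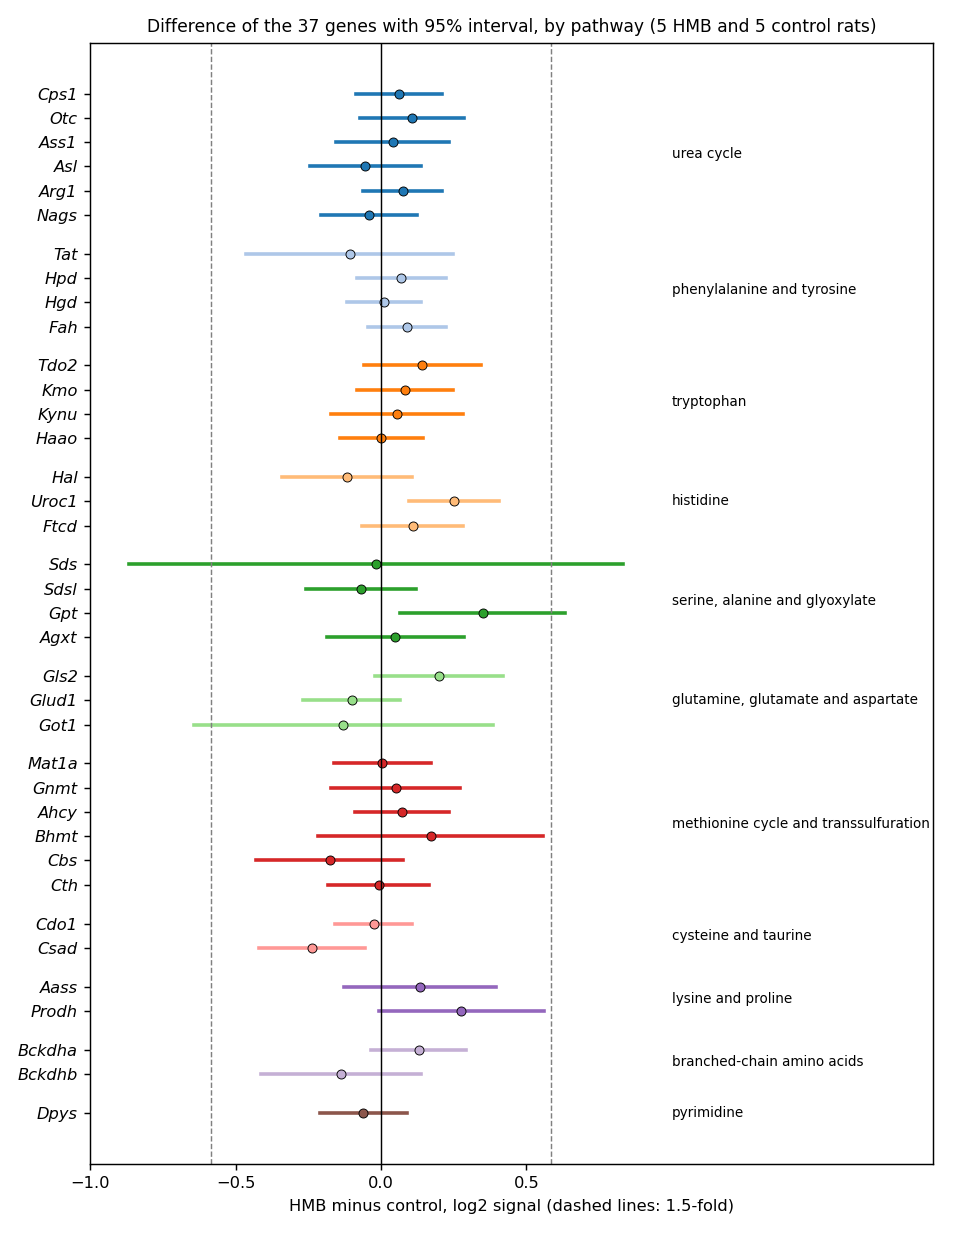
Difference in log2 signal between 5 HMB and 5 control rats (points) with the 95% interval from limma (bars) for the 37 genes, grouped by pathway, with dashed lines at 1.5-fold in either direction. The points lie between -0.24 and 0.35, and the bars of Sds, Got1 and Gpt cross a dashed line.

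Urea cycle transcripts had differences from -0.054 to 0.11, and 0 of 6 passed the test. Otc, the ornithine transcarbamylase that forms citrulline in mitochondria, had a log2 signal of 12.11, 12.02, 11.73, 12.00 and 11.94 in HMB rats 1 to 5, against 11.91, 11.84, 11.96, 11.78 and 11.77 in control rats 1 to 5. The highest Otc value was that of HMB rat 1 and the lowest that of HMB rat 3, and the groups overlapped. Otc differed by 0.11 ± 0.082 (SE, n = 5 in each group, adjusted p = 0.423 by limma). Cps1, the carbamoyl phosphate synthetase that fixes ammonia at the entry of the cycle, averaged 13.26 ± 0.021 in HMB rats and 13.20 ± 0.10 in controls (SD, n = 5 each). Nags makes the N-acetylglutamate that Cps1 requires, and its log2 difference was -0.041. Ass1 and Asl, which make and cleave argininosuccinate, differed by 0.040 and -0.054. Arg1, the arginase that releases urea, differed by 0.075, with a 95% interval from 0.959-fold to 1.16-fold.

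In phenylalanine and tyrosine breakdown 0 of 4 members passed. Fah, the last enzyme of the pathway, which splits fumarylacetoacetate, had a log2 signal of 11.87, 11.98, 11.86, 11.83 and 11.86 in HMB rats 1 to 5, against 11.83, 11.73, 11.78, 11.81 and 11.81 in control rats 1 to 5. HMB rat 4 and control rat 1 had nearly the same value, so that the groups met, and the other HMB rats lay above all controls. The Fah log2 difference was 0.089 ± 0.061 (SE, n = 5 in each group, adjusted p = 0.373 by limma). Hpd, the dioxygenase that makes homogentisate, differed by 0.069. Hgd, which opens the ring of homogentisate, differed by 0.011 and had the smallest within-group SD of all members, 0.035. Tat, the aminotransferase that starts tyrosine breakdown, had a log2 signal of 7.68, 8.01, 7.65, 7.83 and 8.48 in HMB rats 1 to 5, against 7.77, 7.79, 8.10, 8.34 and 8.20 in control rats 1 to 5. HMB rat 5 had the highest Tat value of the 10 rats and HMB rat 3 the lowest. The Tat log2 difference was -0.11 ± 0.16 (SE, n = 5 in each group, adjusted p = 0.703 by limma).

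Of the 4 tryptophan members 0 passed. All 4 differences were above 0, but Haao was at -0.036 with every array set to the same median, Kynu at -0.052 with HMB rat 1 counted as control, and Kynu and Haao at -0.047 and -0.036 with HMB rats 1 and 2 left out. Both also lay below 0 without certain single rats, at the lowest -0.0041 for Kynu and -0.028 for Haao. Tdo2, the dioxygenase that opens the ring of tryptophan, had a log2 signal of 12.99, 13.09, 12.89, 13.14 and 13.19 in HMB rats 1 to 5, against 12.95, 12.79, 12.95, 13.16 and 12.75 in control rats 1 to 5. Control rat 4 reached the level of the HMB rats, and the groups overlapped. Tdo2 differed by 0.14 ± 0.093 (SE, n = 5 in each group, adjusted p = 0.350 by limma). Further along the kynurenine pathway, the log2 differences were 0.081 for Kmo, the hydroxylase of kynurenine, 0.054 for Kynu, which cleaves it, and 0.0010 for Haao, which makes the precursor of quinolinate.

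Histidine breakdown held the member with the smallest p. Uroc1 encodes urocanase, which acts on urocanate after Hal has removed ammonia from histidine. It had a log2 signal of 11.61, 11.70, 11.72, 11.91 and 11.71 in HMB rats 1 to 5, against 11.56, 11.47, 11.50, 11.44 and 11.42 in control rats 1 to 5. All 5 HMB rats lay above all 5 controls, with HMB rat 4 the highest. Uroc1 was the 1 member of 37 whose groups did not overlap with HMB higher, against 2.64% of all genes, and 0 members had all HMB values lower, against 3.48% of all genes. The difference was 0.25 ± 0.071 (SE, n = 5 per group), or 1.19-fold with a 95% interval from 1.07 to 1.33, and the limma adjusted p over all genes was 0.0783. With a trended robust prior in limma Uroc1 passed, at an adjusted p of 0.0401, where 1.78% of all genes were called, and at an adjusted p under 0.10 it was the 1 member called, against 9.1% of all genes. Over all 22 alternatives the limma adjusted p ran from 0.0401 to 0.474 and the difference kept its sign. The other histidine members had log2 differences of -0.12 for Hal and 0.11 for Ftcd, which passes the formimino group to folate. Amdhd1, also of histidine breakdown, was not among the genes measured. The promoter window of Uroc1 is shown because this was the member that separated the groups. It covers 250 bases before to 50 after the RefSeq start on build GRCr8, chr4:124401869-124402168, plus strand, with capitals marking CCAAT, the box bound by NF-Y.
Uroc1: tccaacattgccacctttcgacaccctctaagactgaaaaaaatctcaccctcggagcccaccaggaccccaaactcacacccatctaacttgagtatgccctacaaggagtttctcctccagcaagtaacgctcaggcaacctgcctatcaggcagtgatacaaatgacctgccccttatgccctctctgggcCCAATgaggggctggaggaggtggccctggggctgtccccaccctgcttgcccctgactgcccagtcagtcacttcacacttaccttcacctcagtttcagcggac

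**Figure D2:**
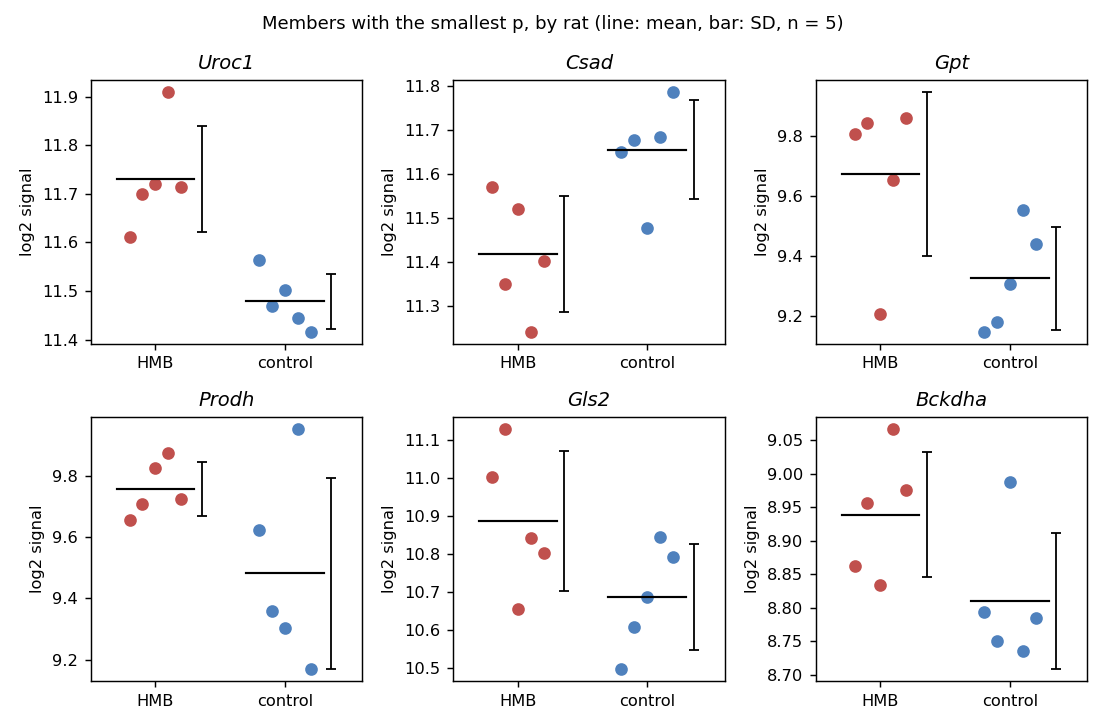
Log2 signal of the 6 members with the smallest p in each of the 5 HMB rats (left) and 5 control rats (right), with the mean as a line and the SD as a bar. In Uroc1 the HMB values lie between 11.61 and 11.91, above all controls, while in the other 5 genes the groups overlap.

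Among enzymes of serine, alanine and glyoxylate 0 of 4 passed. Gpt, the alanine aminotransferase whose protein in serum is used as a marker of liver injury, had a log2 signal of 9.81, 9.85, 9.21, 9.66 and 9.86 in HMB rats 1 to 5, against 9.15, 9.18, 9.31, 9.55 and 9.44 in control rats 1 to 5. Of the HMB rats, 4 lay above all controls, and HMB rat 3 lay inside the control range. Gpt had the largest difference of the members, 0.35 ± 0.13 (SE, n = 5 in each group, adjusted p = 0.134 by limma), or 1.27-fold with a 95% interval from 1.05 to 1.55. Sds, the serine dehydratase that makes pyruvate, had a log2 signal of 7.73, 7.82, 6.71, 6.92 and 6.87 in HMB rats 1 to 5, against 5.92, 6.64, 7.64, 8.13 and 7.81 in control rats 1 to 5. Each group split into high and low rats, with HMB rats 1 and 2 and control rats 3 to 5 at 7.64 or more and the other 5 rats at 6.92 or less. The Sds log2 difference was -0.018 ± 0.39 (SE, n = 5 in each group, adjusted p = 0.980 by limma), with an interval from 0.548-fold to 1.78-fold. Sdsl, a serine dehydratase-like gene, and Agxt, the enzyme that turns glyoxylate into glycine, differed by -0.070 and 0.050.

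Of the 3 genes of glutamine, glutamate and aspartate 0 passed. Gls2, the liver glutaminase that releases ammonia for the urea cycle, had a log2 signal of 11.00, 11.13, 10.65, 10.84 and 10.80 in HMB rats 1 to 5, against 10.50, 10.61, 10.69, 10.84 and 10.79 in control rats 1 to 5. HMB rats 1 and 2 lay above all controls, and HMB rats 3 to 5 lay among them. Gls2 differed by 0.20 ± 0.10 (SE, n = 5 in each group, adjusted p = 0.237 by limma). Glud1, the mitochondrial glutamate dehydrogenase, differed by -0.10. Got1, the cytosolic aspartate aminotransferase, had a log2 signal of 9.25, 9.60, 8.42, 8.60 and 9.05 in HMB rats 1 to 5, against 8.59, 8.77, 9.41, 9.37 and 9.44 in control rats 1 to 5. As for Sds, control rats 1 and 2 and HMB rats 3 and 4 were low. The Got1 difference was -0.13 ± 0.24 (SE, n = 5 in each group, adjusted p = 0.758 by limma).

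The methionine cycle and transsulfuration had 0 of 6 past the test, with differences from -0.18 to 0.17. Cbs, which joins homocysteine and serine into cystathionine, had a log2 signal of 9.85, 9.58, 9.34, 9.20 and 9.48 in HMB rats 1 to 5, against 9.74, 9.54, 9.63, 9.86 and 9.57 in control rats 1 to 5. HMB rats 3, 4 and 5 lay below all controls, and HMB rats 1 and 2 lay among them. Cbs differed by -0.18 ± 0.12 (SE, n = 5 in each group, adjusted p = 0.355 by limma). Bhmt, which returns homocysteine to methionine with betaine, had a log2 signal of 11.55, 11.98, 10.87, 11.37 and 11.19 in HMB rats 1 to 5, against 10.96, 11.30, 11.05, 11.31 and 11.48 in control rats 1 to 5. HMB rats 2 and 3 held the highest and the lowest Bhmt values of all 10 rats. The Bhmt difference was 0.17 ± 0.18 (SE, n = 5 in each group, adjusted p = 0.566 by limma). Mat1a, the liver form of the enzyme that makes S-adenosylmethionine, differed by 0.0045. Gnmt and Ahcy, which use S-adenosylmethionine and cleave its product, differed by 0.050 and 0.072. Cth, which releases cysteine from cystathionine, differed by -0.0087.

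Both members of cysteine and taurine metabolism had a difference below 0 and 0 of 2 passed. Csad, the decarboxylase that makes hypotaurine, had a log2 signal of 11.57, 11.35, 11.52, 11.24 and 11.40 in HMB rats 1 to 5, against 11.65, 11.68, 11.48, 11.68 and 11.79 in control rats 1 to 5. Of the HMB rats, 3 lay below all controls and HMB rats 1 and 3 lay above the lowest control. Csad had the lowest difference of the members, -0.24 ± 0.084 (SE, n = 5 in each group, adjusted p = 0.120 by limma), or 0.848-fold with a 95% interval from 0.747 to 0.963. Cdo1, the dioxygenase that makes its substrate from cysteine, differed by -0.025.

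Lysine and proline had 0 of 2 past the test. Prodh, the mitochondrial proline dehydrogenase, had a log2 signal of 9.66, 9.71, 9.82, 9.87 and 9.73 in HMB rats 1 to 5, against 9.62, 9.36, 9.30, 9.95 and 9.17 in control rats 1 to 5. The HMB rats spanned 9.66 to 9.87 and the controls 9.17 to 9.95, so that the HMB values lay within the control range. Prodh differed by 0.28 ± 0.13 (SE, n = 5 in each group, adjusted p = 0.211 by limma), with an SD of 0.089 in HMB rats and 0.31 in controls. Aass, which starts lysine breakdown by way of saccharopine, had a log2 signal of 11.39, 11.72, 11.11, 11.11 and 11.06 in HMB rats 1 to 5, against 11.11, 11.04, 11.28, 11.15 and 11.14 in control rats 1 to 5. HMB rats 1 and 2 were the highest of all 10 rats. The Aass difference was 0.13 ± 0.12 (SE, n = 5 in each group, adjusted p = 0.502 by limma).

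For the branched-chain 2-oxoacid dehydrogenase, the enzyme complex that commits leucine, isoleucine and valine to oxidation, 0 of 2 subunits passed. Bckdha, the E1 alpha subunit, had a log2 signal of 8.86, 8.96, 8.83, 9.07 and 8.98 in HMB rats 1 to 5, against 8.79, 8.75, 8.99, 8.73 and 8.79 in control rats 1 to 5. Control rat 3 lay inside the HMB range and the other 4 controls below all HMB rats. Bckdha differed by 0.13 ± 0.075 (SE, n = 5 in each group, adjusted p = 0.299 by limma). Bckdhb, the E1 beta subunit, differed by -0.14 and had a log2 SD of 0.31 in HMB rats against 0.031 in controls. Dpys, the dihydropyrimidinase of pyrimidine breakdown, had a log2 signal of 10.91, 10.97, 10.87, 11.02 and 10.97 in HMB rats 1 to 5, against 10.99, 10.94, 11.08, 11.13 and 10.90 in control rats 1 to 5. The groups overlapped, at a difference of -0.061 ± 0.069 (SE, n = 5 in each group, adjusted p = 0.595 by limma).

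The 6 members with a second probe set were Cps1, Asl, Sdsl, Glud1, Prodh and Bckdha. With all probe sets tested, the second ones had log2 differences of -0.23 for Cps1, -0.15 for Asl, 0.14 for Sdsl, -0.021 for Glud1, 0.19 for Prodh and -0.0053 for Bckdha. Those of Cps1, Sdsl and Bckdha thus had the opposite sign to the reported ones, and 0 of the 6 passed limma over all probe sets (adjusted p from 0.232 to 0.990).

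For Sds and Got1 the spread between rats of the same group exceeded the difference between the groups of every member. Sds, Got1, Bhmt and Tat had the largest within-group SDs, 0.75, 0.44, 0.33 and 0.30 on the log2 scale, and they were picked out for this spread. In 14 of the 37 members HMB rats 1 and 2 both lay above HMB rats 3 to 5, against 16.4% of all genes, and in 2, Uroc1 and Prodh, both lay below them, against 14.4% of all genes, while in the other members the rats overlapped. The 14 were Cps1, Otc, Hpd, Fah, Kynu, Sds, Sdsl, Agxt, Gls2, Got1, Bhmt, Cbs, Cth and Aass. For the 35 members in the brightest 25% the count above was 12, or 34.3%, beside 27.7% of all genes of that brightness, a share near that background and no result about the members. HMB rats 1 and 2 averaged 7.77 in Sds, 9.43 in Got1 and 11.76 in Bhmt, against 6.83, 8.69 and 11.14 in HMB rats 3 to 5. HMB rat 2 was the highest of all 10 rats in 13 members and HMB rat 3 the lowest in 15. Over the brightest 25% of all genes, HMB rat 2 was the highest in 7.68% and HMB rat 3 the lowest in 27.1%.

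**Figure D3:**
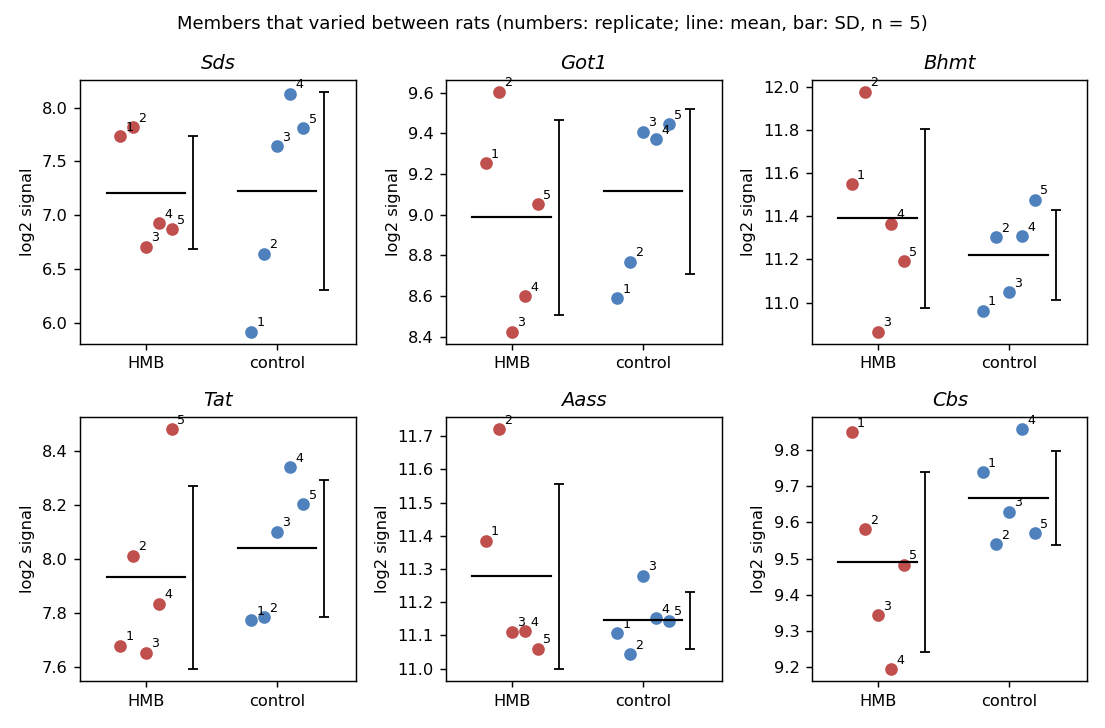
Log2 signal of Sds, Got1, Bhmt, Tat, Aass and Cbs in each of the 5 HMB rats (left) and 5 control rats (right), numbered by replicate, with the mean as a line and the SD as a bar. HMB rats 1 and 2 lie above HMB rats 3 to 5 in every panel except Tat, and control rats 1 and 2 are the lowest controls in Sds, Got1 and Tat.

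Array measures differed between HMB rats 1 and 2 and HMB rats 3 to 5, a split seen in the values and not tested. The permutation p-values given here compare HMB with control rats. SDs of the log2 values were 2.43 in HMB rats 1 and 2, and 2.377 to 2.385 in HMB rats 3 to 5. Median log2 signals were 4.38 and 4.37 in HMB rats 1 and 2, and 4.39 to 4.41 in HMB rats 3 to 5. Over an array, log2 values had an SD of 2.40 ± 0.026 in HMB rats and 2.47 ± 0.024 in controls (SD, n = 5 each, two-sided exact permutation p = 0.00794, 0.0317 adjusted over 4 measures). The signal of poly-A transcripts added to the RNA, minus that of hybridisation controls, was -1.92 and -1.96 in HMB rats 1 and 2 and -1.54, -1.78 and -1.47 in HMB rats 3 to 5, against -2.19 to -1.90 in controls (two-sided exact permutation p = 0.0238, 0.0476 adjusted). The 3' minus 5' signal of GAPDH was 1.31 and 1.38 in HMB rats 1 and 2 and reached 2.09 in HMB rats 3 to 5, which all lay above the 1.38 to 1.77 of controls (two-sided exact permutation p = 0.516 between the groups). The median log2 signal of an array averaged 4.39 in HMB rats and 4.35 in controls (n = 5 each, two-sided exact permutation p = 0.0397, 0.0529 adjusted). With HMB rats 3 to 5 left out the median difference of the members was 0.10, with 27 of 37 above 0. With HMB rats 1 and 2 left out it was -0.023, with 16 above 0, so that its sign turned. With the poly-A measure added to the model it was 0.096. Their part in the members' values beyond these fits was not tested. In each of these 3 fits 0 of 37 members passed, beside 0, 704 and 0 of all 14217 genes in that order of fits. At an unadjusted p under 0.05 by limma there were 5, 4 and 5 members, beside 1612, 3996 and 1914 of all 14217 genes. Got1 differed by 0.31 with HMB rats 3 to 5 left out and by -0.42 with HMB rats 1 and 2 left out, and Bhmt by 0.54 and -0.079.

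**Figure D4:**
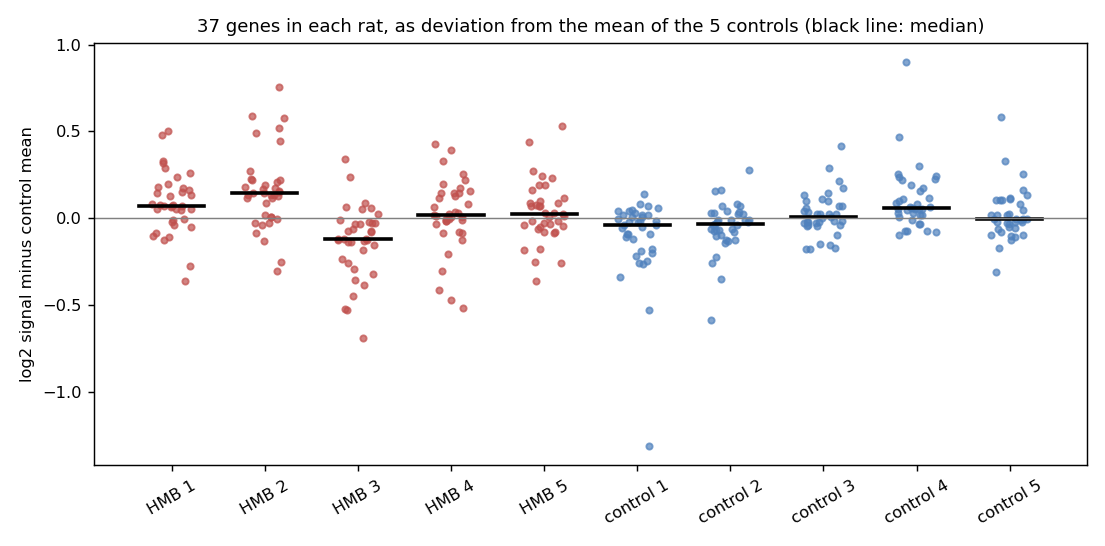
Deviation of each of the 37 genes from the mean of the 5 controls, in log2 signal, for each rat (points) with the median over the 37 genes (black line). The median is highest in HMB rat 2, at 0.15, and lowest in HMB rat 3, at -0.12, while the 5 controls lie between -0.038 and 0.060.

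Promoter windows are shown for Got1 and Bhmt because these varied most between rats among the members that the promoter table holds. Capitals mark CCAAT or its reverse complement ATTGG and, in Bhmt, the TATA box TATAAA. The windows run from 250 bases before to 50 after the RefSeq start on GRCr8, chr1:252329822-252330121 for Got1 and chr2:26614380-26614679 for Bhmt, both on the minus strand and written 5′ to 3′ along the gene.
Got1: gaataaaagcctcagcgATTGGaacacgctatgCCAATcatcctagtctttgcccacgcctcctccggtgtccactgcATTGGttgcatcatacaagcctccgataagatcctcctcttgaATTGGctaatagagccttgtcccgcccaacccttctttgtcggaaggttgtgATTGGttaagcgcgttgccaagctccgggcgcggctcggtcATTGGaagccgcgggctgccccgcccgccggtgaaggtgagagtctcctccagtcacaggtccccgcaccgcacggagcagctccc
Bhmt: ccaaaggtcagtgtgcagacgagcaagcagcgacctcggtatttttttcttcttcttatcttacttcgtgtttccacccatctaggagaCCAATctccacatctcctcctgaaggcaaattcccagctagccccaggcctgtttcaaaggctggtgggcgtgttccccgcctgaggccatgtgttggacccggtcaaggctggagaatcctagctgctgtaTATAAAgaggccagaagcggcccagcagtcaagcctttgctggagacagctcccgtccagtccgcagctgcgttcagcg

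Got1 held 6 such matches, 1 as CCAAT and 5 as ATTGG, while Bhmt held 1 CCAAT and 1 TATAAA. Of the 37 members 28 had a window in the table, searched on both strands. CCAAT was found in 15 of 28 members, or 53.6%, and in 37.5% of all 33469 windows of that length. TATAAA was found in 4 members, Ass1, Bhmt, Ftcd and Tdo2, or 14.3%, against 14.2% of all windows. The cyclic AMP response element TGACGTCA was found in 0 members and 1.83% of all windows, the C/EBP palindrome TTGCGCAA in 0 members and 0.170%, and the direct repeat of AGGTCA spaced by 1 base in 0 members and 0.0538%. Members without a window were Arg1, Bckdha, Cdo1, Dpys, Gpt, Hal, Prodh, Sds and Sdsl.

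Beyond the 37, 103 other genes of the same pathways, of amino acid transport and of their regulation were listed, of which 92 were measured. Of these 0 rose, 2 fell and 90 did not pass, with a median difference of 0.0037. The count called was near the share of 1.72% over all genes and is no result about the 92 genes. Mat2a, the methionine adenosyltransferase of most tissues other than adult liver, had a log2 signal of 7.49, 7.33, 7.92, 7.63 and 7.59 in HMB rats 1 to 5, against 8.10, 8.16, 8.05, 8.25 and 8.05 in control rats 1 to 5. All HMB rats lay below all controls, and Mat2a fell by 0.53 ± 0.10 (log2, SE, n = 5 in each group, adjusted p = 0.0320 by limma). The difference of Mat1a, its counterpart of adult liver, was 0.0045 with HMB higher. Creb1, a transcription factor activated by cyclic AMP, had a log2 signal of 6.77, 6.63, 6.53, 6.41 and 6.14 in HMB rats 1 to 5, against 6.80, 7.15, 7.06, 7.07 and 7.11 in control rats 1 to 5. All HMB rats again lay below all controls, and Creb1 fell by 0.54 ± 0.12 (log2, SE, n = 5 in each group, adjusted p = 0.0425 by limma), and its 3 other, dimmer probe sets had differences from -0.063 to 0.15. Mat2a had 2 other, dimmer probe sets, with differences of -0.17 and 0.014. After cyclic loess normalization neither gene passed, at differences of -0.42 and -0.42 (limma adjusted p = 0.104 for Mat2a and 0.0881 for Creb1). The Mat2a call was also lost without HMB rat 2, 4 or 5 or control rat 2, 3, 4 or 5, and the Creb1 call without HMB rat 2, 3, 4 or 5 or control rat 2, 3, 4 or 5 (limma adjusted p from 0.0587 to 0.104). Of all 22 alternatives, Mat2a passed in 10 and Creb1 in 9.

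Another 3 of these genes had groups that did not overlap without passing the test. In all, 2 of the 92 genes had HMB higher without overlap, against 2.64% of all genes. With HMB lower there were 3 of the 92, Mat2a and Creb1 among them, against 3.48% of all genes. Both counts were near those shares and are no result about the 92 genes. Gcat, which cleaves the threonine product 2-amino-3-ketobutyrate, averaged 9.39 ± 0.056 in HMB rats and 9.19 ± 0.042 in controls (SD, n = 5 each, limma adjusted p = 0.0927). Hibch, an enzyme of valine breakdown, averaged 9.31 ± 0.19 in HMB rats and 8.98 ± 0.060 in controls (limma adjusted p = 0.0783), and Slc43a1, a carrier of large neutral amino acids, 8.19 ± 0.25 in HMB rats and 8.67 ± 0.17 in controls (limma adjusted p = 0.0648). Over the 22 alternatives Slc43a1 passed in 4, at a lowest limma adjusted p of 0.0384 with HMB rats 1 and 2 left out, Hibch in 1, at 0.0496 with array weights, and Gcat in 0. By pathway, the other enzymes had median differences from -0.16 for glutamine, glutamate and aspartate to 0.098 for tryptophan, with 20 measured genes of branched-chain breakdown at 0.048.

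The tissue label was checked against markers. The 7 measured hepatocyte markers, among them Alb and Ttr, had mean log2 signals from 12.49 to 14.57 in HMB rats and from 12.74 to 14.61 in controls, and 0 of 7 passed the test, with differences from -0.25 to 0.12. Of 30 measured markers of Kupffer, stellate, bile duct, endothelial, lymphoid, erythroid and pancreatic cells 0 passed. The brightest of them, Hbb, averaged 10.81 in HMB rats and 10.51 in controls, below every hepatocyte marker. Some lists varied widely between rats. The log2 of the summed signal of the Kupffer markers ran from 9.54 to 11.56 in controls and 10.34 to 11.21 in HMB rats. For the endothelial markers it ran from 9.73 to 11.13 in controls and 9.95 to 10.72 in HMB rats. Cela1, on the pancreatic list, averaged 9.18 and 9.27, with the other pancreatic markers at 3.58 or less, and Epcam, on the bile duct list, 8.26 and 8.27. The 3 measured erythroid markers, Alas2, Hbb and Slc4a1, had differences of 0.30 to 0.40 without passing. All HMB rats lay above all controls in Slc4a1, at means of 3.49 and 3.09 in HMB and control rats (limma unadjusted p = 0.00314, adjusted p = 0.0728), and Alas2 had a limma unadjusted p of 0.0260. Slc4a1, like Cd3e of the lymphocyte list, lay in the dimmest 25% of genes. Over that dimmest 25% the median difference was 0.11, with 2802 of 3555 genes above 0. The log2 of the summed signal of the 3 erythroid markers, most of it Hbb, ran from 10.47 to 11.12 in HMB rats against 9.84 to 11.19 in controls. Among stellate cell markers Dcn averaged 4.01 in HMB rats and 4.53 in controls, a difference of -0.53 (limma unadjusted p = 0.0445, adjusted p = 0.189). Of the 6 stellate markers 5 differed below 0 and 1, Rgs5, above at 0.26, with a median of -0.11. Apoa1 of hepatocytes (-0.25, limma unadjusted p = 0.0248) and Cd3e of lymphocytes (0.25, limma unadjusted p = 0.0347) did not pass either. By the same limma fit 24.9% of all genes had an unadjusted p under 0.05. The part of blood, stellate, Kupffer or endothelial cells in the values of the 37 genes was not tested.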

How the data were processed

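Liver RNA of 10 rats was hybridised to 1 Affymetrix rat expression array each. Values are deposited log2 signals made with RMA, per the submitters' processing notes, and the version is not given in the sources used here. After 57 control probe sets were left out, 31042 of 31099 remained, of which 20826 had 1 gene, 436 several and 9780 none. The probe set with the highest mean stood for each of 14217 genes. HMB and control rats were compared over all genes with limma 3.58.1 in R 4.3.3 (lmFit, eBayes, Benjamini-Hochberg). The replicates are separate animals. Array measures were compared with exact permutation tests. The code was tested on simulated data. The members and lists were chosen with earlier results of these data known. All members are named. Values of every rat are given for members past the threshold, without overlap of the groups or with the smallest p of their pathway, and, chosen after their values were seen, for Sds, Got1, Bhmt, Tat, Aass, Mat2a and Creb1. Other pathway genes are named if called or without overlap. Alternatives changed the normalization, the filter, the variance prior, array weights, the probe set, the group of HMB rat 1, a poly-A covariate and the rats included. Promoters are RefSeq's (GRCr8). Tables and plots used Python 3.11.15, pandas 2.3.3 and matplotlib 3.10.9.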

Additional observations from a re-analysis of the deposited data

Results flagged for a closer look

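In 6 of 84 groups of 5 rats (42 genes, 2 groups each) 1 rat lay apart from the other 4 by more of the range than Dixon's 95% critical value allows, and chance does this in about 1 in 20 groups. Among HMB rats, Ftcd was 11.84 in HMB rat 3, with the others from 12.07 to 12.16, and Mat1a was 12.43 in HMB rat 2, with the others from 12.19 to 12.24. Among controls, Glud1 was 12.18 in control rat 2 (others 11.93 to 12.00), Cdo1 was 13.26 in control rat 5 (others 13.36 to 13.40), Bckdha was 8.99 in control rat 3 (others 8.73 to 8.79) and Creb1 was 6.80 in control rat 1 (others 7.06 to 7.15), all as log2 signals.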

How the results depend on the processing

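Of 814 differences of the 37 members over 22 alternatives, 746 kept their direction and their side of the threshold, 67 turned their sign, none of them past the threshold, and 1 newly passed it. In 15 members the sign never turned. The cause of these turns was not tested. With cyclic loess normalization, the turned log2 differences were Nags 0.046, Tat 0.0046, Sds 0.10 and Sdsl 0.051. With arrays set to the same median, the turned log2 differences were Hgd -0.026, Haao -0.036 and Mat1a -0.033. With quantile normalization, the turned log2 differences were Nags 0.030, Tat 0.0097, Sds 0.11, Sdsl 0.068 and Cth 0.0082. With array weights, the turned log2 differences were Sds 0.015, Mat1a -3.4e-05 and Cth 0.013. With the probe set of highest SD, the turned log2 differences were Cps1 -0.23 and Bckdha -0.0053. With HMB rat 1 counted as control, the turned log2 differences were Asl 0.047, Tat 0.015, Kynu -0.052 and Agxt -0.0014. With the poly-A covariate, the turned log2 differences were Hgd -0.0041, Sds 0.14, Sdsl 0.084, Got1 0.042, Cth 0.14, Cdo1 0.0048 and Bckdhb 0.057. With HMB rats 3 to 5 left out, the turned log2 differences were Hgd -0.0092, Sds 0.55, Sdsl 0.10, Got1 0.31, Cbs 0.048 and Cth 0.099. With HMB rats 1 and 2 left out, the turned log2 differences were Hpd -0.0025, Kynu -0.047, Haao -0.036, Agxt -0.041, Mat1a -0.036, Bhmt -0.079 and Aass -0.051. With 1 rat left out, the differences that turned their sign ran as follows, as lowest and highest value: Agxt -0.012 to 0.13, Asl -0.10 to 0.0010, Ass1 -0.016 to 0.10, Cth -0.048 to 0.035, Gnmt -0.034 to 0.11, Got1 -0.28 to 0.011, Haao -0.028 to 0.031, Hgd -0.0036 to 0.024, Kynu -0.0041 to 0.12, Mat1a -0.040 to 0.041, Sds -0.35 to 0.21. The median of the members ran from -0.00037 (without control rat 1) to 0.078 (without HMB rat 3), and was -0.023 with HMB rats 1 and 2 left out. Of the members, 1 was called with a trended robust prior, 1 at an adjusted p under 0.10 and 0 to 0 with 1 rat left out. The count of all genes called by limma was 82 with cyclic loess, 62 with quantile normalization, 659 with array weights, 30 with HMB rat 1 counted as control, 704 with HMB rats 1 and 2 left out and 0 to 1014 with 1 rat left out. It was 0 with the poly-A covariate (1914 at an unadjusted p under 0.05) and 0 with HMB rats 3 to 5 left out (1612 likewise). No paired analysis was possible because the replicate numbers follow the order of deposition and pair no animals. The number of arrays limits the precision, and no detection calls were used, so signal over background was not examined.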
